A study of Mus musculus with 6 samples.

Results

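Rab proteins are the largest family of small GTPases that direct membrane traffic, and this report describes the transcripts of the Rab family in mouse peritoneal endothelial cells (ECs) after peritoneal dialysis (PD) fluid. Members were all genes with a Rab name in the gene table whose mean over the 6 samples was at least 10 counts. This gave 52 of 59 Rab names and 52 of 22183 genes in all. The rule itself does not use the effect of PD fluid, but the family was chosen with earlier results of these data known. The samples came from 3 saline mice and 3 PD mice, which were wild-type (WT) adult males of the C57BL/6J strain that received saline or Dianeal PD fluid into the peritoneum every day for 6 weeks. ECs were taken from the mesentery through the surface protein CD31, by magnetic sorting according to the sample labels and by flow sorting of CD31+ CD45- cells according to the study's methods. Poly(A) RNA of 1 mouse made 1 library, so that the spread between libraries is a spread between mice, and the libraries held 21973426 to 26374292 counts. Both groups share the injections, the strain and the sort, and differ in the fluid.

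Each Rab cycles between a form bound to GDP in the cytosol and a form bound to GTP on 1 kind of membrane, where it recruits effectors such as tethers, motors and sorting proteins. Lipid (prenyl) tails anchor the protein, exchange factors load it with GTP, GTPase-activating proteins switch it off, and GDP dissociation inhibitors return it to the cytosol. In ECs, Rabs carry junction proteins such as VE-cadherin and growth factor receptors from the surface to early endosomes and back, and steer the release of Weibel-Palade bodies, the secretory granules of the endothelium. The study asked how PD fluid affects endothelial metabolism, endocytosis and barrier function, and the Rab family is part of the machinery of endocytosis.

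The labelled cell type was compared with marker genes before the Rab transcripts were read. In fragments per kilobase of transcript with scaling to the mapped reads (FPKM), which allow levels to be compared between genes, the endothelial gene Pecam1, which encodes CD31, was at 142, 149.8 and 142 in saline mice and at 164, 155 and 156 in PD mice. Ptprc, which encodes the leukocyte protein CD45, was at 614, 658 and 601 FPKM in saline mice and at 388, 388 and 401 FPKM in PD mice. The B cell gene Cd79a was at 1367 to 1451 FPKM in saline mice and at 599 to 631 FPKM in PD mice. Ptprc and Cd79a thus stood above Pecam1 in all 6 libraries, and a Rab level is that of the whole cell mixture. The summed counts relative to the library total (CPM, after TMM scaling) of 8 B cell markers were lower in PD mice (6280.1 to 6548 in saline mice and 2967 to 3012 in PD mice, 0 of 8 higher and 8 of 8 lower), and those of 12 macrophage and dendritic cell markers were higher (2649 to 2782 and 10723 to 11558, 12 of 12 higher). The sums of the other lists were 1123 to 1129 and 1753 to 1843 CPM for 12 endothelial markers (11 higher, 0 lower), 95 to 103 and 853 to 889 CPM for 8 fibroblast markers (8 higher), 32.6 to 38.3 and 227 to 258 CPM for 8 mesothelial markers (8 higher), 277 to 297 and 439.8 to 486 CPM for 8 pericyte and smooth muscle markers (8 higher), and 2.62 to 6.41 and 7103 to 7991 CPM for 12 pancreatic acinar markers (11 of 11 tested higher, with the defining factors Ptf1a and Rbpjl at or under 3 counts in saline mice). Smaller lists gave 237 to 244 and 346 to 394 CPM for 7 mast cell markers (6 higher), 17.5 to 20.7 and 205 to 219 CPM for 7 neutrophil markers (5 of 6 tested higher, with Ly6g at or under 3 counts in saline mice), 1637 to 1733 and 1405 to 1571 CPM for 8 T and NK cell markers (1 higher, 3 lower), 6401 to 6764 and 4999 to 5068 CPM for 5 genes of all leukocytes (1 higher, 4 lower), and 25 to 25.3 and 30.2 to 35.6 CPM for 6 epithelial markers (3 higher, with Cldn7 at or under 3 counts in saline mice). The part of these lists in any Rab result below was not tested. In bulk samples such as these, fewer cells of a type and less RNA per cell cannot be told apart.

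The Rab transcripts ranged in mean level from 0.247 FPKM for Rab39b to 268 FPKM for Rab7. Mean FPKM over the 6 mice was at least 100 in 8 members, between 10 and 100 in 24, between 1 and 10 in 13 and under 1 in 7. Rab7, the regulator of transport from late endosomes to lysosomes, had the highest level, at 279, 289 and 279.7 FPKM in saline mice and 248, 249.6 and 264 FPKM in PD mice. It was followed by Rab1b of the route from the endoplasmic reticulum (ER) to the Golgi at a mean of 167 FPKM, by the recycling Rabs Rab11a at 138 FPKM and Rab4b at 134 FPKM, and by Rab2a of the Golgi at 137 FPKM. Rab24, Rab14 and Rab11b followed at 127, 126 and 122 FPKM. Below Rab7, the neighbours in this order did not all stand apart: the 6 values of Rab2a (129 to 146 FPKM) lay within those of Rab11a (127 to 146 FPKM), and those of Rab24 (82.7 to 159 FPKM) covered those of Rab14 (117 to 132 FPKM). The 7 members under 1 FPKM were Rab38, Rab44, Rab40b, Rab3b, Rab26, Rab36 and Rab39b.

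**Figure D1:**
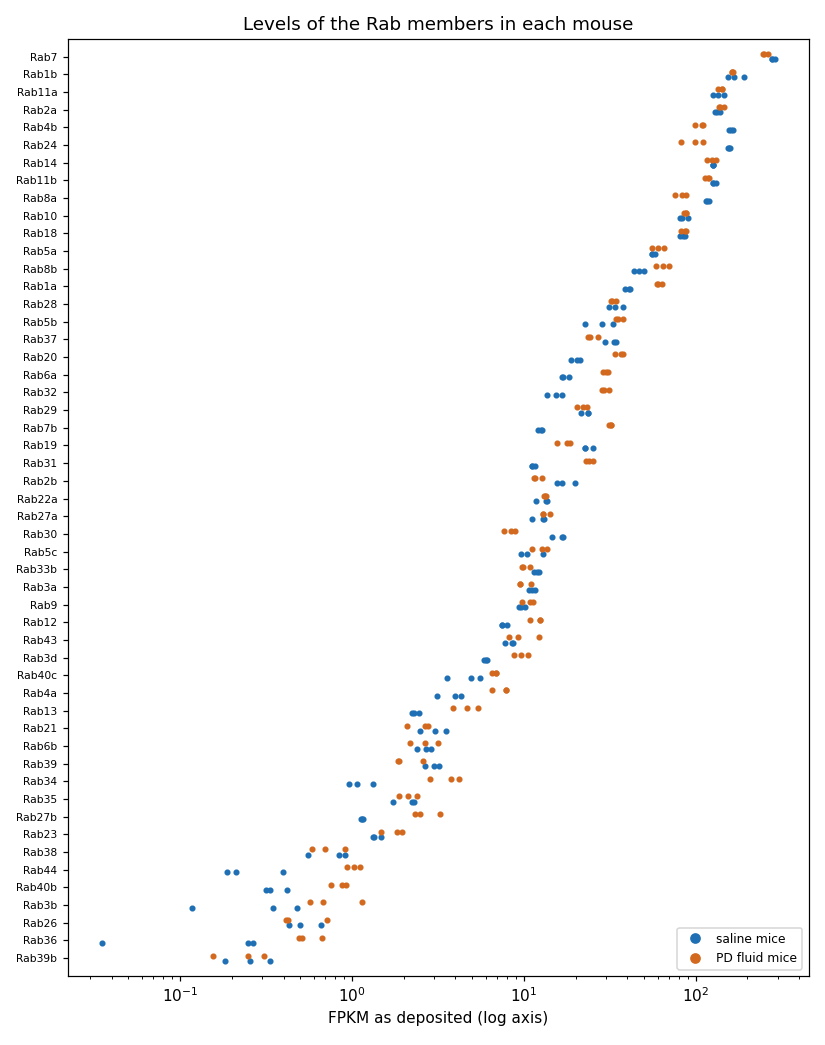
Level of each of the 52 Rab members in FPKM as deposited (horizontal log axis), with 1 point for each saline mouse (blue) and each PD mouse (orange), ordered by the mean over the 6 mice. Rab7 stood highest at a mean of 268 FPKM, and saline and PD points separate visibly for genes such as Rab4b, Rab24 and Rab8a among the abundant members and Rab7b, Rab34 and Rab44 further down.

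With PD fluid, the family did not move as a block. Of the 52 members, 20 were higher in PD mice, 9 were lower and 23 did not pass an adjusted p of 0.05 (edgeR's quasi-likelihood test, adjusted by Benjamini-Hochberg over 14005 genes), while the same rule called 58.9% of all genes tested, 31.1% as higher and 27.8% as lower. The share of members called was 55.8%, near that background. Other fits called like shares of all genes as higher and lower: 29.7% and 27.3% with DESeq2, 31.5% and 28.0% with limma-voom, 31.0% and 28.5% with DESeq2 size factors, 26.2% and 21.5% with no filter on low counts, and 30.3% and 26.2% with replicate numbers as a block. Changes of at least 2-fold were found in 8 members, all higher (background 15.4% higher and 1.80% lower), and 6 of these 8 had a mean level under 5 FPKM. The median log2 fold change was 0.09 over the members, which ranged from -0.97 for Rab30 to 1.94 for Rab44, and 0.02 over all genes tested. Values of the 3 PD mice and the 3 saline mice did not overlap for 34 members, 23 with PD mice higher and 11 with PD mice lower, against 65.6% of all genes (34.0% higher and 31.6% lower). All 29 called members were among these 34. The other 5 that did not overlap were Rab23, Rab22a, Rab5c, Rab7 and Rab11b.

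These directions are relative to the total of all transcripts (TMM scaling), and they depend on that choice because the endothelial markers differed between the groups. Scaled to the geometric mean of the counts of the 12 endothelial markers, the values of all genes shifted by -0.98 on the log2 scale. The 12 markers themselves did not move alike: their log2 fold changes by TMM ran from 0.13 for Pecam1 to 1.65 for Tie1. After that scaling 3 of the 12 were called higher and 3 lower. How far a sign near 0 depends on the markers taken was not tested. Under that scaling 3 members were higher, namely Rab7b (log2 fold change 0.36, adjusted p = 0.00915), Rab34 (0.75, adjusted p = 0.0114) and Rab44 (0.96, adjusted p = 0.00855), and 38 were lower, against 8.24% and 72.2% of all genes. All 9 members that were lower by TMM were also lower by the endothelial scaling, and the 17 other members that were higher by TMM were lower or no longer called. Log2 fold changes below are those by TMM, and the value by endothelial scaling is given where its sign differs.

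**Figure D2:**
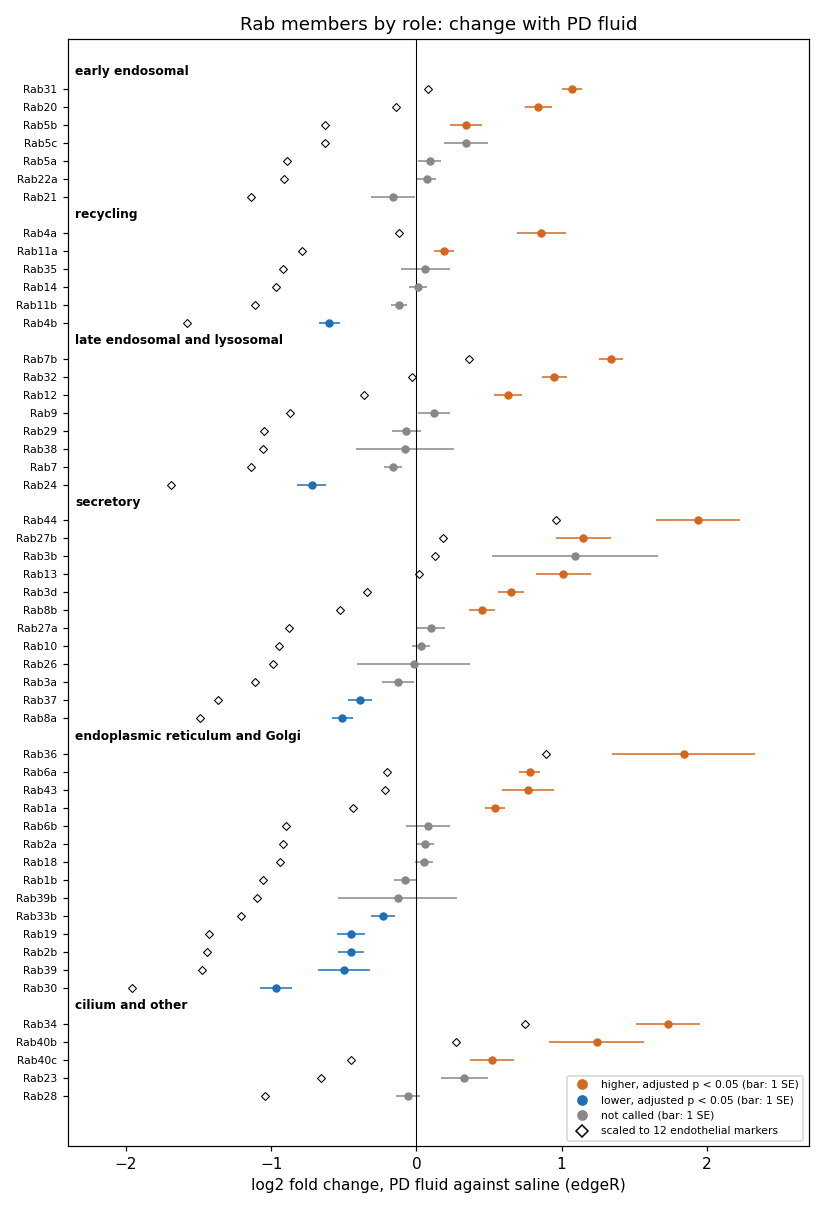
Log2 fold change of PD mice against saline mice (horizontal axis) for the 52 Rab members grouped by role, as filled points with bars of 1 SE from edgeR (orange higher, blue lower, grey not called at an adjusted p of 0.05), and as open diamonds after scaling to the 12 endothelial markers. The filled points run from -0.97 to 1.94, and the diamonds lie lower by about 0.98, so that 3 members stay called as higher.

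The 8 members with a rise of at least 2-fold were Rab31, Rab7b, Rab44, Rab27b, Rab13, Rab36, Rab34 and Rab40b. Their genes lie on several chromosomes (GRCm38, GENCODE), among them Rab7b on chromosome 1 from 131688695 to 131715439, Rab34 on chromosome 11 from 78188430 to 78192193, and Rab44 and Rab31 on chromosome 17 from 29114145 to 29148980 and from 65651729 to 65772752. No exon of these 4 genes shared bases with an exon of another annotated gene. The stretch just before the start of transcription in RefSeq is shown for 3 members that were higher in PD mice and that held a match to a motif searched on both strands in 250 bases upstream: the E-box CACGTG, the AP-1 motif TGANTCA or the PU.1 motif GAGGAAGT. They show the last 100 bases before the RefSeq start, 5′ to 3′ on the gene's strand (RefSeq, GRCm38.p6), with the motif in capitals: Rab20 at chr8:11478641-11478740 on the minus strand, Rab32 at chr10:10558208-10558307 on the minus strand and Rab34 at chr11:78188327-78188426 on the plus strand.
Rab20: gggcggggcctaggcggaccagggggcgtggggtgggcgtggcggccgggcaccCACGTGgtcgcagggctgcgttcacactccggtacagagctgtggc
Rab32: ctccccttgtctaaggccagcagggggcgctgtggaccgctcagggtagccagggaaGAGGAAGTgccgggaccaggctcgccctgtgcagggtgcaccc
Rab34: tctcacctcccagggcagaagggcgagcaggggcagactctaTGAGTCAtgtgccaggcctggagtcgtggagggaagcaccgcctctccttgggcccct
The matches begin 46, 43 and 58 bases before the RefSeq start. GENCODE places the starts of Rab20 and Rab32 further upstream, at 11478710 and 10558265, so that by that annotation these 2 matches lie inside the gene. Of 50 promoters from 41 members with an entry, 5 held CACGTG, 1 held TGANTCA and 2 held GAGGAAGT, while 6.02%, 6.75% and 2.44% of 32851 mouse promoters did. Rab2b, which fell, also held GAGGAAGT, and Rab5a, Rab21, Rab23 and Rab27a, which were not called, held CACGTG. A match to these letters is a description of the sequence and not a measured binding site.

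Early endosomal Rabs receive cargo from the plasma membrane. Of 7 members, 3 were higher and 0 were lower by TMM, while 0 were higher and 5 lower when scaled to endothelial markers. The share called by TMM was 42.9%, against 58.9% of all genes (31.1% higher, 27.8% lower). Endothelial scaling called 8.24% of all genes higher and 72.2% lower. Rab5a, which drives fusion of early endosomes and was the most abundant of this role in FPKM, stood at 132, 138 and 132 CPM in saline mice and at 128, 143 and 158 CPM in PD mice. The groups overlapped, and the log2 fold change of 0.09 (SE 0.079) did not pass the test (adjusted p = 0.327; -0.89 by endothelial scaling). Its paralog Rab5b was at 90.7, 73.2 and 104 CPM in saline mice and at 117, 112 and 112 CPM in PD mice, higher by a log2 fold change of 0.34 (SE 0.11, adjusted p = 0.0176; -0.63 by endothelial scaling). Without PD mouse 1 the call of Rab5b was lost (adjusted p = 0.0513), and without saline mouse 2 its log2 fold change was 0.22 (adjusted p = 0.027). Rab5c had the same log2 fold change of 0.34 (-0.63 by endothelial scaling) with a larger SE of 0.15 and did not pass (adjusted p = 0.0646). It passed without saline mouse 3 (0.44, adjusted p = 0.0391), with no filter on low counts (adjusted p = 0.0455) and with the replicate block (adjusted p = 0.0358).

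Rab31, also known as Rab22b, which serves traffic between the trans-Golgi network and endosomes, was at 39.0, 39.2 and 40.1 CPM in saline mice and at 84.4, 81.6 and 81.6 CPM in PD mice. Every PD mouse was above every saline mouse with little spread, and the log2 fold change was 1.07 (SE 0.068, adjusted p = 3.13e-07), which came to 0.08 (adjusted p = 0.47) when scaled to endothelial markers. Rab20, a Rab of phagosomes and maturing endosomes, was at 28.5, 29.7 and 26.3 CPM in saline mice and at 46.1, 52.7 and 52.5 CPM in PD mice (log2 fold change 0.84, SE 0.09, adjusted p = 1.88e-05; -0.14 by endothelial scaling). Exons of Rab20 overlap the opposite-strand gene E230013L22Rik, which was not analysed here, over 25.6% of their length. Rab21, which handles integrins, was at 9.68 to 13.4 CPM in saline mice and at 8.97 to 10.5 CPM in PD mice and was not called (log2 fold change -0.16, adjusted p = 0.376). Rab22a was not called either (log2 fold change 0.07, adjusted p = 0.384; -0.91 by endothelial scaling).

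Recycling Rabs return cargo to the surface. Of 6 members, 2 were higher and 1 was lower by TMM, while 0 were higher and 5 lower when scaled to endothelial markers. The same rule called 31.1% of all genes higher and 27.8% lower by TMM, and 8.24% and 72.2% by endothelial scaling. Rab4b, of the fast recycling route, was at 187, 193 and 198 CPM in saline mice and at 115, 130.3 and 136 CPM in PD mice, and fell by 0.60 on the log2 scale (SE 0.073, adjusted p = 4.49e-05). Its paralog Rab4a was far less abundant, at 5.78, 5.26 and 4.31 CPM in saline mice and at 9.79, 8.05 and 10.1 CPM in the PD mice, and had a log2 fold change of 0.86 (SE 0.17, adjusted p = 0.00118; -0.12 by endothelial scaling). The pair thus differed in direction by TMM. Annotated exons of Rab4b overlap those of the same-strand gene Gm21983 over 65.0% of their length, so that reads may have been split between both genes, and Gm21983 was lower as well (log2 fold change -0.76, adjusted p = 5.36e-05).

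Rab11a, the regulator of slow recycling through the perinuclear compartment and the most abundant recycling Rab in FPKM, was at 158, 172 and 161 CPM in saline mice and at 174, 189.9 and 196 CPM in PD mice. The counts gave a log2 fold change of 0.19 (SE 0.067, adjusted p = 0.0324; -0.79 by endothelial scaling), but the call was lost without saline mouse 1 or 3 or PD mouse 2 or 3 (adjusted p = 0.0823 to 0.112). In FPKM the groups of Rab11a overlapped, at 127 to 146 in saline mice and 135 to 142 in PD mice. Rab11b was at 219, 230.3 and 218 CPM in saline mice and at 201, 210.4 and 202 CPM in PD mice, which did not overlap and did not pass the test (log2 fold change -0.12, SE 0.058, adjusted p = 0.0881). Rab14 and Rab35, which sort cargo from endosomes, were not called, with log2 fold changes of 0.01 (adjusted p = 0.906; -0.97 by endothelial scaling) and 0.06 (adjusted p = 0.78; -0.92 by endothelial scaling).

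Late endosomal and lysosomal Rabs carry cargo to degradation and to lysosome-related organelles. Of 8 members, 3 were higher and 1 was lower by TMM, while 1 was higher and 6 lower when scaled to endothelial markers. Among all genes, 31.1% were higher and 27.8% lower by TMM, against 8.24% and 72.2% by endothelial scaling. Rab7, the most abundant Rab, was at 589.9, 614 and 589 CPM in saline mice and at 507, 530.1 and 573 CPM in PD mice. These values did not overlap, and a log2 fold change of -0.16 (SE 0.063) fell just short of the threshold (adjusted p = 0.0526). Rab7 passed without PD mouse 3 (-0.20, adjusted p = 0.0179), in DESeq2 (adjusted p = 0.0417), in limma-voom (adjusted p = 0.0443) and with DESeq2 size factors in edgeR (adjusted p = 0.0461).

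Rab7b, which is named for its likeness to Rab7 and serves transport from endosomes to the trans-Golgi network, was at 23.4, 26.0 and 23.9 CPM in saline mice and at 60.7, 59.7 and 65.4 CPM in PD mice. Its log2 fold change of 1.34 (SE 0.083, adjusted p = 2.28e-07) stayed a rise when scaled to endothelial markers. By that scaling 10 of 12 macrophage and dendritic, 8 of 8 fibroblast and 8 of 8 mesothelial markers were also higher. So were 5 of 6 neutrophil and 11 of 11 acinar markers tested, 4 of 8 pericyte and smooth muscle markers and 3 of 6 epithelial markers. All 8 B cell markers, all 8 T and NK cell markers and all 5 genes of all leukocytes were lower, as were 2 of 7 mast cell markers. Of all genes, 8.24% were higher and 72.2% lower by that scaling. The part of any of these lists in the Rab7b value was not tested. Rab32, a Rab of lysosome-related organelles and mitochondria, was at 32.2, 29.6 and 35.2 CPM in saline mice and at 63.8, 60.2 and 63.4 CPM in PD mice (log2 fold change 0.95, SE 0.085, adjusted p = 4.40e-06; -0.03 by endothelial scaling). Rab12, which directs receptors to lysosomes, was at 15.5, 16.7 and 15.4 CPM in saline mice and at 25.0, 25.6 and 23.1 CPM in PD mice (log2 fold change 0.63, SE 0.099, adjusted p = 2.96e-04; -0.36 by endothelial scaling).

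Rab24, which takes part in autophagy, was the one member of this role that fell, from 169, 173 and 166 CPM in saline mice to 85.9, 104 and 119.6 CPM in PD mice (log2 fold change -0.72, SE 0.10, adjusted p = 1.46e-04). Its exons share 62.4% of their length with the opposite-strand gene Prelid1, whose mean was 120 ± 5.74 CPM after saline and 118 ± 3.12 CPM after PD fluid (SD, n = 3; log2 fold change -0.02, adjusted p = 0.808, edgeR). The strand used in counting is not stated in the sources used here, so that reads of both genes cannot be told apart. Rab9, of the route from late endosomes to the Golgi, Rab29 and Rab38 were not called, with log2 fold changes of 0.12 (adjusted p = 0.368; -0.87 by endothelial scaling), -0.07 (adjusted p = 0.577) and -0.08 (adjusted p = 0.85).

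Secretory Rabs bring vesicles and granules to the plasma membrane. Of 12 members, 5 were higher and 2 were lower by TMM, while 1 was higher and 8 lower when scaled to endothelial markers. By TMM 58.3% were called, against 58.9% of all genes, and endothelial scaling called 72.2% of all genes lower. Rab8a, which carries vesicles from the Golgi to the surface and was the most abundant of this role in FPKM, was at 526, 552 and 524 CPM in saline mice and at 336, 379 and 408 CPM in PD mice, and fell by 0.51 on the log2 scale (SE 0.074, adjusted p = 1.62e-04). Rab8b was at 206, 239.6 and 221 CPM in saline mice and at 269, 305 and 338 CPM in PD mice, with a log2 fold change of 0.45 (SE 0.088, adjusted p = 0.0012; -0.53 by endothelial scaling). Every saline mouse was above every PD mouse for Rab8a and below for Rab8b by TMM. Rab37, a Rab of secretory granules, fell from 75.6, 66.2 and 74.3 CPM in saline mice to 52.5, 59.2 and 53.6 CPM in PD mice (log2 fold change -0.39, SE 0.082, adjusted p = 0.00206).

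Among the granule Rabs, Rab27a, which marks Weibel-Palade bodies in ECs, was at 39.1, 33.8 and 39.5 CPM in saline mice and at 37.9, 38.7 and 43.9 CPM in PD mice, which overlapped (log2 fold change 0.10, SE 0.095, adjusted p = 0.396; -0.88 by endothelial scaling). Its paralog Rab27b was at 3.36, 3.32 and 3.27 CPM in saline mice and at 6.25, 6.75 and 9.15 CPM in PD mice (log2 fold change 1.15, SE 0.19, adjusted p = 4.21e-04). Scaled to endothelial markers, the log2 fold change of Rab27b was 0.18, with an adjusted p of 0.45 (edgeR). Rab3d, a Rab of Weibel-Palade bodies and of zymogen granules in acinar cells, was at 23.2, 22.9 and 23.4 CPM in saline mice and at 39.4, 35.7 and 33.5 CPM in PD mice (log2 fold change 0.65, SE 0.091, adjusted p = 1.43e-04; -0.34 by endothelial scaling). Acinar markers were higher in the same PD mice, as were the markers of several other cell types. The part of any list in the Rab3d value was not tested.

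Rab44, an unusually large Rab known from mast cell granules, had the largest log2 fold change of the family. It was at 0.82, 0.738 and 0.994 CPM in saline mice and at 4.12, 2.52 and 3.17 CPM in PD mice, a log2 fold change of 1.94 (SE 0.29, adjusted p = 2.23e-04). In FPKM Rab44 was at 0.187 to 0.399 in saline mice and at 0.936 to 1.11 in PD mice, so that the largest change belonged to one of the least abundant members. Mast cell markers were higher in the same mice (6 of 7, median log2 fold change 0.72). So were macrophage and dendritic (12 of 12), neutrophil (5 of 6 tested), fibroblast and mesothelial markers (8 of 8 each). B cell markers were lower (8 of 8). The part of any of these lists in the Rab44 value was not tested. Rab13, which serves tight junctions, was at 2.73, 2.54 and 2.57 CPM in saline mice and at 5.89, 5.37 and 4.49 CPM in PD mice (log2 fold change 1.01, SE 0.19, adjusted p = 0.00103). By endothelial scaling it was 0.02, with an adjusted p of 0.921 (edgeR). Rab3b had a log2 fold change of 1.09 with an SE of 0.57 and was not called (adjusted p = 0.121), except without saline mouse 1 (1.86, adjusted p = 0.0379). Rab10, Rab3a and Rab26 had log2 fold changes of 0.03 (adjusted p = 0.717; -0.95 by endothelial scaling), -0.13 (adjusted p = 0.363) and -0.02 (adjusted p = 0.971).

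**Figure D3:**
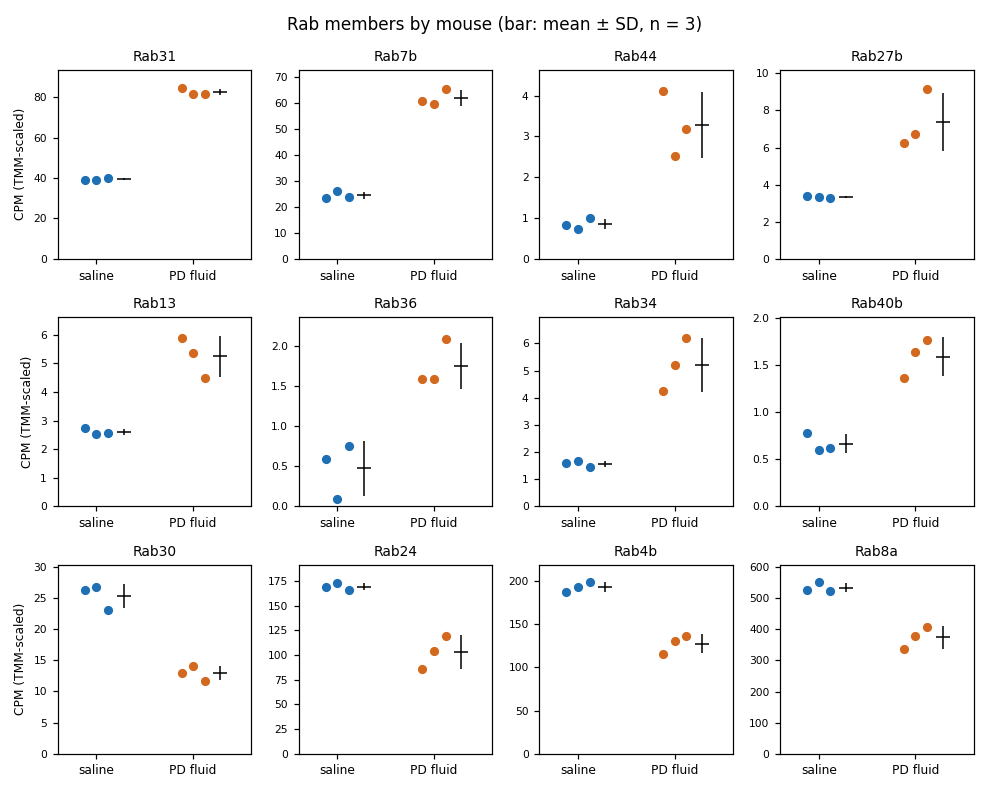
Level in CPM after TMM scaling (vertical axes, each from 0) in each saline mouse (blue) and PD mouse (orange), with the mean and SD (bar, n = 3), for the 8 members with a rise of at least 2-fold and for Rab30, Rab24, Rab4b and Rab8a, which had the 4 largest falls. The 3 PD mice lie outside the range of the 3 saline mice in every panel, and the scale runs from under 1 CPM for Rab36 to over 500 CPM for Rab8a.

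ER and Golgi Rabs form the role with the most members. Of 14 members, 4 were higher and 5 were lower by TMM (3 to 4 lower when any 1 mouse was left out, and 27.8% of all genes lower), while 0 were higher and 11 lower when scaled to endothelial markers. By TMM 64.3% were called, against 58.9% of all genes, and endothelial scaling called 72.2% of all genes lower. Rab1b, of the ER-to-Golgi route and the most abundant here in FPKM, was at 314, 293 and 360 CPM in saline mice and at 295, 303 and 317 CPM in PD mice, which overlapped (log2 fold change -0.08, adjusted p = 0.388). Its paralog Rab1a rose from 98.7, 102 and 93.9 CPM to 140.2, 137 and 152 CPM (log2 fold change 0.54, SE 0.068, adjusted p = 5.72e-05; -0.44 by endothelial scaling). Rab6a, which governs traffic within the Golgi and back to the ER, was at 53.3, 57.6 and 53.1 CPM in saline mice and at 88.6, 97.6 and 96.2 CPM in PD mice (log2 fold change 0.78, SE 0.073, adjusted p = 6.34e-06; -0.20 by endothelial scaling). Exons of Rab6a overlap the opposite-strand gene Mrpl48 over 19.0% of their length, and Mrpl48 was lower (log2 fold change -0.44, adjusted p = 0.00371).

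The largest fall of the family was that of Rab30, a Golgi Rab, from 26.2, 26.7 and 23.1 CPM in saline mice to 13, 14.0 and 11.7 CPM in PD mice (log2 fold change -0.97, SE 0.11, adjusted p = 3.20e-05). Rab2b, of Golgi structure, fell from 41.4, 46.5 and 43.0 CPM to 32.9, 29.1 and 33.8 CPM (log2 fold change -0.45, SE 0.09, adjusted p = 0.00145), and 59.3% of its exon length is shared with the opposite-strand gene Gm43766, which was not analysed here. Rab19 had the same log2 fold change of -0.45 (SE 0.098, adjusted p = 0.00256). Rab33b, which links the Golgi to autophagy, and Rab39 had smaller or less certain falls, by 0.23 (SE 0.085, adjusted p = 0.0362) and by 0.50 (SE 0.18, adjusted p = 0.031) on the log2 scale. The call of Rab33b was lost without PD mouse 1 or 3 or saline mouse 1 or 2 (adjusted p = 0.0657 to 0.124), and that of Rab39 without PD mouse 1 or 2 or saline mouse 2 or 3 (adjusted p = 0.0612 to 0.122). Exons of Rab33b overlap the opposite-strand gene Gm38160, which was not analysed here, over 18.7% of their length.

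Rab36 had the largest rise of this role, on few reads. Its counts were 15, 2 and 18 in saline mice and 43, 38 and 46 in PD mice, and the log2 fold change was 1.84 (SE 0.49, adjusted p = 0.00795; 0.89 and adjusted p = 0.0874 by endothelial scaling). Rab43 was at 20.7, 16.9 and 20.0 CPM in saline mice and at 44.4, 28.3 and 25.7 CPM in PD mice, with PD mouse 1 far above the others (log2 fold change 0.77, SE 0.18, adjusted p = 0.0041; -0.22 by endothelial scaling). Without PD mouse 1 the log2 fold change of Rab43 was 0.49 (adjusted p = 0.00834). In FPKM the groups of Rab43 overlapped, at 8.64, 7.77 and 8.52 in saline mice and 12.3, 9.26 and 8.22 in PD mice, and exons shared with the same-strand gene Gm45140 make up 75.4% of its exon length. Rab43 and Rab11a were the 2 called members, of 29, whose groups overlapped in FPKM. Rab2a, Rab18, Rab6b and Rab39b were not called, with log2 fold changes from -0.13 to 0.08 by TMM and from -1.10 to -0.90 by endothelial scaling.

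The 5 remaining members, of the cilium and of other roles, had 3 rises and 0 falls by TMM, while 1 was higher and 3 were lower when scaled to endothelial markers. By TMM 60.0% were called, against 58.9% of all genes, and endothelial scaling called 72.2% of all genes lower. Rab28, linked to cilia, was the most abundant of them in FPKM and overlapped between groups, at 54.7, 52.0 and 61.1 CPM in saline mice and at 50.5, 56.1 and 54.6 CPM in the PD mice (log2 fold change -0.06, adjusted p = 0.567). Rab34, which acts in the formation of cilia and in lysosome positioning, was at 1.6, 1.66 and 1.45 CPM in saline mice and at 4.23, 5.2 and 6.21 CPM in PD mice (log2 fold change 1.73, SE 0.22, adjusted p = 7.79e-05). Every PD mouse was above every saline mouse for Rab34 in CPM and in FPKM, where the means were 1.12 and 3.6.

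Rab40b and Rab40c, whose proteins carry a SOCS box that recruits ubiquitin ligases, both rose by TMM. Rab40b was at 0.781, 0.6 and 0.621 CPM in saline mice and at 1.36, 1.64 and 1.77 CPM in PD mice (log2 fold change 1.24, SE 0.33, adjusted p = 0.00766; 0.27 and adjusted p = 0.525 by endothelial scaling). Rab40c was at 12.2, 8.99 and 13.7 CPM in saline mice and at 16.4, 16.3 and 17.6 CPM in PD mice (log2 fold change 0.52, SE 0.15, adjusted p = 0.0117; -0.45 by endothelial scaling). Rab23, a Rab of Hedgehog signalling, had a log2 fold change of 0.33 that was not called (adjusted p = 0.0892; -0.66 by endothelial scaling) except without PD mouse 3 (adjusted p = 0.047). Fibroblast, mesothelial, and pericyte and smooth muscle markers were higher in the PD mice (8 of 8 in each list). Macrophage and dendritic cell markers were higher as well (12 of 12), and B cell markers were lower (8 of 8). The part of any of these lists in the value of Rab34 was not tested.

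The ratio of 2 paralogs within a mouse does not depend on the scaling of the library. Of 16 pairs of members with the same number in their names, the log2 count ratios of 10 pairs did not overlap between groups, which is no more than a description, since 65.6% of single genes did not overlap and ratios of other gene pairs were not computed. With 3 mice against 3, the exact two-sided permutation test cannot go below p = 0.1, which each of these 10 reached (0.16 after Benjamini-Hochberg adjustment over the 16 pairs), so that no pair could pass a threshold of 0.05. The ratio of Rab4a to Rab4b went from a mean of -5.25 in saline mice to -3.77 in PD mice, a difference of 1.47. The ratio of Rab7 to Rab7b went from 4.62 to 3.11, the largest decrease among the 10 pairs. The ratio of Rab8a to Rab8b was 1.35, 1.2 and 1.25 in saline mice and 0.32, 0.31 and 0.27 in PD mice, so that both transcripts came close to equal counts after PD fluid. Rab27a to Rab27b went from 3.49 to 2.46, and Rab1a to Rab1b from -1.71 to -1.09.

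In these pairs the member with fewer counts gained on the one with more, but this was not so in every pair. Rab6a, which has more counts than Rab6b, gained on it (2.13 to 2.84), as did Rab2a on Rab2b (2.72 to 3.23) and Rab3d on Rab3a (-0.59 to -1.36 for Rab3a to Rab3d). Rab11a and Rab40b, which have fewer counts than Rab11b and Rab40c, gained on them by 0.31 and 0.71. The 3 pairs within the Rab5 group overlapped, with differences of -0.27 for Rab5a to Rab5b (p = 0.3, exact permutation test), -0.27 for Rab5a to Rab5c (p = 0.6, exact permutation test) and 0 for Rab5b to Rab5c (p = 1, exact permutation test). The 3 others that overlapped were Rab3a to Rab3b, Rab3b to Rab3d and Rab39 to Rab39b.

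**Figure D4:**
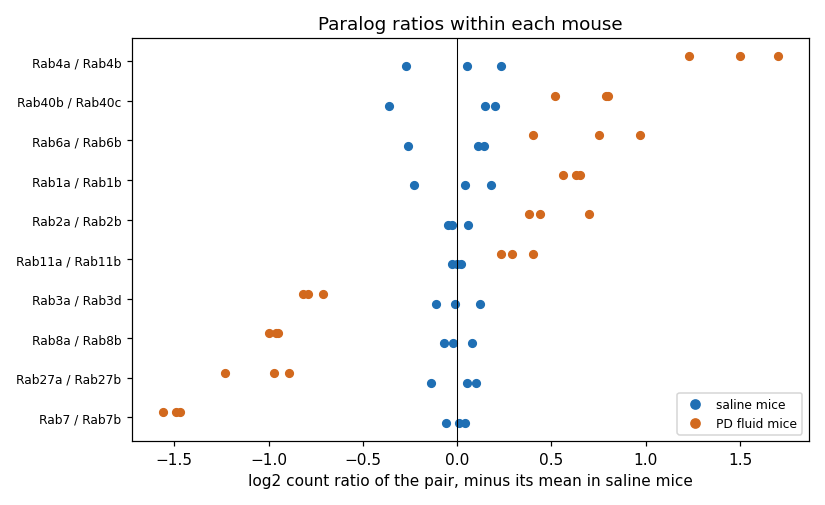
Log2 ratio of the counts of 2 paralogs in each mouse, minus the mean ratio of the 3 saline mice (horizontal axis), for the 10 pairs whose groups did not overlap, with saline mice in blue and PD mice in orange. Rab4a to Rab4b lies farthest to the right (difference 1.47) and Rab7 to Rab7b farthest to the left (difference -1.5).

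As a description of the balance of the family, FPKM were summed by role in each mouse and given as shares of all Rab FPKM, which sum to 100% and so cannot move independently. Early endosomal Rabs made up 6.88%, 6.56% and 7.02% in saline mice and 9.2%, 9.08% and 9.05% in PD mice. Recycling Rabs made up 26.5%, 27.1% and 26.2% in saline mice and 24.2%, 24.7% and 24.5% in PD mice. The early endosomal share was higher in every PD mouse than in every saline mouse, and the recycling share was lower. These shares rest on few members. Mean FPKM went from 20.2 to 36.3 for Rab20, from 11.3 to 24 for Rab31 and from 28 to 35.8 for Rab5b. That of Rab5a, which was not called, was 56.5 and 60.6. Among recycling Rabs, mean FPKM was 161 and 107 for Rab4b and 136 and 139.5 for Rab11a. Late endosomal and lysosomal Rabs went from 23.9% to 24.6% in saline mice to 22.2% to 23.1% in PD mice. ER and Golgi Rabs were at 25% to 25.5% and at 26.3% to 27.4%, without overlap. The secretory share stayed within 14.7% to 15.2% in the 6 mice. The share of the cilium and other roles was 1.81% to 2.19% in saline mice and 2.23% to 2.33% in PD mice, also without overlap. The summed FPKM of all members was 2078 to 2107 in saline mice and 1979 to 2077 in PD mice.

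**Figure D5:**
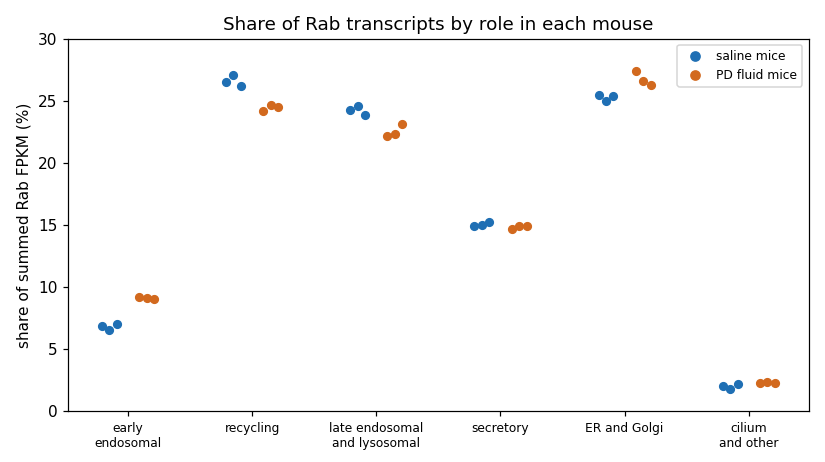
Share of the summed Rab FPKM (vertical axis, percent) held by each role in each saline mouse (blue) and PD mouse (orange). Early endosomal Rabs lie at 6.56% to 7.02% in saline mice and at 9.05% to 9.2% in PD mice, and recycling Rabs at 26.2% to 27.1% and at 24.2% to 24.7%.

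The proteins that load, switch and read Rabs were taken as 4 lists. Of 114 of their genes that were tested, 46 were higher and 22 lower by TMM (59.6% called, near the 58.9% of all genes), while by endothelial scaling 8 were higher and 78 lower. Among all genes, 31.1% were higher and 27.8% lower by TMM, and 8.24% and 72.2% by endothelial scaling. Of 8 genes of prenylation and membrane delivery, 0 were higher and 2 lower by TMM (25.0% called), and 0 and 7 by endothelial scaling. Rabggtb, the catalytic subunit of the enzyme that prenylates Rabs, fell from 41.3, 42.9 and 40.8 CPM to 27.5, 27.6 and 32.4 CPM (log2 fold change -0.52, SE 0.091, adjusted p = 6.50e-04). In this list 6 genes were not called: Chm, Rabif, Rabggta and Rabac1 had log2 fold changes of -0.20, -0.18, -0.17 and -0.10, and Gdi2 and Chml of 0.02 and 0.65 (-0.97 and -0.32 by endothelial scaling).

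Among 34 exchange factors, 11 were higher and 9 lower by TMM (58.8% called, against 58.9% of all genes). By endothelial scaling 2 were higher and 25 lower, against 8.24% and 72.2% of all genes. Rab3il1, an exchange factor of Rab8, rose from 51.5, 53.3 and 56.7 CPM to 144, 141 and 155 CPM (log2 fold change 1.44, SE 0.071, adjusted p = 3.45e-08). Rin1, which acts on Rab5, and Dennd2a had the largest rises, with log2 fold changes of 2.11 (adjusted p = 3.23e-04) and 1.80 (adjusted p = 0.00302) at levels under 3 CPM. The largest falls were those of Dennd5b, Dennd1b and Dennd1c, with log2 fold changes of -0.88, -0.58 and -0.51. Among 35 GTPase-activating proteins, 17 were higher and 5 lower by TMM (62.9% called, with 31.1% of all genes higher and 27.8% lower). By endothelial scaling 4 were higher and 22 lower. Tbc1d10c fell from 966, 837 and 1004 CPM to 583, 595 and 647 CPM (log2 fold change -0.62, adjusted p = 5.73e-05), and Rabgap1l and Tbc1d14 each fell by 0.29 on the log2 scale. Sgsm1, Tbc1d9 and Tbc1d24 had the largest rises, with log2 fold changes of 2.79, 1.47 and 1.47.

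Of 37 effectors tested, 18 were higher and 6 lower by TMM (64.9% called, with 31.1% of all genes higher and 27.8% lower). By endothelial scaling 2 were higher and 24 lower, against 8.24% and 72.2% of all genes. Rabep2, an effector of Rab5 and Rab4, fell from 138, 126 and 140 CPM to 80.1, 74.6 and 72.2 CPM (log2 fold change -0.83, SE 0.071, adjusted p = 3.25e-06). Rab11fip2, a partner of Rab11, and Mical1 fell by 0.54 and 0.53 on the log2 scale. Rab11fip5, another Rab11 partner, rose from 6.21, 2.31 and 8.16 CPM to 38, 31.3 and 26.2 CPM (log2 fold change 2.51, SE 0.31, adjusted p = 5.65e-05). Myrip, which ties Rab27a to myosin, and Rims1, a Rab3 partner, had log2 fold changes of 1.44 and 3.68, the latter on levels of 0 to 0.277 CPM in saline mice and 0.809 to 1.99 CPM in the PD mice.

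The 7 Rab names under the minimum of 10 counts were Rab42, Rab3c, Rab15, Rab33a, Rab17, Rab25 and Rab9b, with mean counts from 8.33 for Rab42 to 1.00 for Rab9b. The least abundant gene inside the minimum was Rab3b with a mean of 15.7 counts. Rab17, an epithelial Rab, had 0 counts in all 3 saline mice and 8, 10 and 2 counts in the PD mice. Of the 7, Rab42 alone passed the filter of the test and was not called (log2 fold change 0.43, SE 0.57, adjusted p = 0.534, edgeR). Its log2 fold change was -0.52 by endothelial scaling. With no filter on low counts, Rab17 was called (adjusted p = 0.0102, edgeR) and the other 6 were not.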

How the data were processed

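RNA of sorted peritoneal ECs of 3 saline and 3 PD mice was sequenced on an Illumina NovaSeq from poly(A) libraries. The authors deposited gene counts and FPKM values for each sample, made with fastp 0.18.0, Bowtie2 2.2.8, HISAT2, StringTie 1.3.1in and RSEM per the submitters' processing notes. The genome build, annotation and strand setting are not given in the sources used here. The deposited columns of the authors' own comparison (log2 fold changes, p-values) were not used. Counts were fitted in edgeR 4.0.16 (R 4.3.3) with filterByExpr, TMM scaling and the quasi-likelihood test over 14005 genes, PD mice against saline mice, with Benjamini-Hochberg adjustment and a threshold of 0.05. CPM are TMM-scaled, and an SE is the log2 fold change divided by the square root of F. The fit was tested on simulated data in which a small set of genes rose or fell in equal number, so that the choice of scaling was not tested. Alternatives were DESeq2 1.42.0, limma-voom 3.58.1, DESeq2 size factors, no filter, scaling to 12 endothelial markers, a replicate block, a 2-fold minimum and leaving out each mouse. The Rab members and all lists were chosen with earlier results of these data known. Every member was described, with values by mouse for those called and changed at least 2-fold and, in each role, for the most abundant and the largest rise and fall, other called members being added by choice after their values were seen. Of each pathway list the 3 largest called rises and falls were named. Motifs, and the promoters shown, were chosen after seeing the data. The values of 1 gene of the prenylation list are not reported here.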

Additional observations from a re-analysis of the deposited data

How the results depend on the processing

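Depth limits the members under 1 FPKM, and 3 mice a group limit the exact tests to p = 0.1. DESeq2, limma-voom, DESeq2 size factors in edgeR, no filter on low counts and the replicate block each changed the call of at most 2 of 52 members. With DESeq2, 1 recycling member was higher and 2 late endosomal members were lower. The latter count was also 2 with DESeq2 size factors and with limma-voom, through Rab7, and with no filter on low counts 1 prenylation gene was higher. Replicate numbers did not pair the mice: correlations of same-numbered deviations were 0.188, 0.067 and -0.274, and not every mouse correlated best with its own number. A fit with the replicate block called 4242 genes higher and 3667 lower, lost Rab33b (adjusted p = 0.0521, edgeR) and gained Rab5c (adjusted p = 0.0358, edgeR). The other members kept their calls under it.

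Scaling to the 12 endothelial markers turned the median of the members to -0.90 and left 3 members higher and 38 lower, against 8.24% and 72.2% of all genes. By role the counts higher and lower became 0 and 5 for early endosomal, 0 and 5 for recycling, 1 and 6 for late endosomal, 1 and 8 for secretory, 0 and 11 for ER and Golgi, and 1 and 3 for cilium and other. Prenylation had 7 genes lower, exchange factors 2 higher and 25 lower, GTPase-activating proteins 4 and 22, and effectors 2 and 24. The log2 fold changes that changed sign were -0.89 for Rab5a, -0.63 for Rab5b, -0.63 for Rab5c, -0.14 for Rab20, -0.91 for Rab22a, -0.12 for Rab4a, -0.79 for Rab11a, -0.97 for Rab14, -0.92 for Rab35, -0.03 for Rab32, -0.87 for Rab9, -0.36 for Rab12, -0.53 for Rab8b, -0.95 for Rab10, -0.88 for Rab27a, -0.34 for Rab3d, -0.44 for Rab1a, -0.92 for Rab2a, -0.94 for Rab18, -0.20 for Rab6a, -0.22 for Rab43, -0.90 for Rab6b, -0.45 for Rab40c and -0.66 for Rab23. The shift of all genes by this scaling is part of its construction.

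Requiring a 2-fold change as well left 8 members higher and 0 lower: 1 early endosomal, 0 recycling (0 lower), 1 late endosomal (0 lower), 3 secretory (0 lower), 1 ER and Golgi (0 lower) and 2 of the cilium and other roles. Of the pathway lists it left 0 prenylation genes lower, 5 exchange factors higher (0 lower), 7 GTPase-activating proteins higher (0 lower) and 6 effectors higher (0 lower). By the same rule 15.4% of all genes were higher and 1.80% lower.

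Leaving out each mouse in turn gave 19 to 20 members higher and 7 to 9 lower and a median of 0.08 to 0.13. The ranges higher and lower were 2 to 4 and 0 to 0 for early endosomal, 1 to 2 and 1 to 1 for recycling, 3 to 3 and 1 to 2 for late endosomal, 5 to 6 and 2 to 2 for secretory, 4 to 4 and 3 to 4 for ER and Golgi, and 3 to 4 and 0 to 0 for cilium and other. They were 0 to 1 and 2 to 3 for prenylation, 10 to 14 and 7 to 9 for exchange factors, 14 to 17 and 4 to 5 for GTPase-activating proteins, and 15 to 17 and 4 to 6 for effectors. The recycling count of 1 was found without PD mouse 2 or 3 or saline mouse 1 or 3, the late endosomal count of 2 lower without PD mouse 3, the ER and Golgi count of 3 lower without PD mouse 1 or saline mouse 2, and the prenylation rise without PD mouse 2.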
